A study of Mus musculus with 20 samples.

Results

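The response described here is that of mouse fibroblasts lacking the heat shock factor 1 gene (HSF1 -/-, called KO) in the later hours of a heat shock course. It was read from 7 arrays of 20 in all: the 4 KO arrays at 3, 4, 6 and 8 h (the late arrays) and the 3 KO arrays at 0 h, numbered #1 to #3, compared across every gene that had a probe listing 1 gene. The other arrays were 3 early KO arrays (0.5, 1 and 2 h) and fibroblasts with the gene (HSF1 +/+, called WT) on 4 late, 3 early and 3 0 h arrays. All 20 samples were labelled as mouse fibroblasts and hybridised in Cy5 against the same Cy3 pool, which mixed mRNA of unheated fibroblasts and of fibroblasts after 1 h of heat. Only 0 h was measured more than once, so the 4 late arrays are 4 times rather than replicates, and change over time is part of how far they spread.

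HSF1 is the transcription factor that, in heated cells, forms trimers, binds heat shock elements in promoters and switches on chaperone genes. Chaperones refold or hold unfolded proteins, and cells without HSF1 are known to induce the classical heat shock proteins poorly. Heat also halts cell division, disturbs splicing and the cytoskeleton and activates kinase cascades that switch on immediate early genes, processes with many regulators besides HSF1.

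The model has limits that the labels leave in place. KO and WT cells are 2 cell populations, so the absence of HSF1 cannot be told apart from other differences between them, and no label ties the 0 h arrays to separate cultures; p-values then measure only how far these arrays spread. The labels give hours of heat shock and no recovery time, so it is unknown whether the cells were still hot when harvested. Hsf1 and its relative Hsf2 had 0 probes listing 1 gene, so the targeted gene could not be followed. A ratio to a pool gives no transcript level, so the fibroblast label could not be checked against marker levels.

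Every value below is a log2 ratio, with each array centred on its median and each gene set against its mean on the 0 h arrays of the same genotype. A shift common to most transcripts is therefore not visible, and fewer cells of a type cannot be told apart from less RNA per cell. Arrays held 39037 to 42220 values, their number limits the precision, and 10625 genes were tested. Across probes the late KO arrays correlated with each other at r of 0.664 to 0.756, the KO 0 h arrays at 0.721 to 0.795, and late with 0 h arrays at 0.454 to 0.683. The spread of values within an array (median absolute deviation) was 0.682 to 0.851 on the late arrays, against 1.12 on 0 h #1, 0.804 on #2 and 0.897 on #3, so most late arrays were narrower. The part of that width in the results was not tested, apart from the scaled setting given under the processing alternatives.

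Without HSF1, 1133 genes (10.7% of those tested) differed between the late and the 0 h arrays at an adjusted p under 0.05. Of these, 410 were higher (3.86%) and 723 lower (6.8%). Without median centring the split was 419 higher and 463 lower, so the size of the excess of falls depends on the centring. Changes of more than 2-fold numbered 228 higher and 170 lower. An unadjusted p under 0.05 was met by 2679 of the 10625 genes, both directions together, beside which the unadjusted counts of list members below stand. In the raw order of arrays, 1071 of 10386 genes (10.3%) with a value on all 7 arrays had every late value above every 0 h value, and 1708 (16.4%) had every late value below. The early arrays against the same 0 h arrays gave 0 calls (793 genes had an unadjusted p under 0.05), and the difference between late and early arrays is tested further on. The count rests in part on single arrays: it was 523 without 0 h #1 (262 higher, 261 lower), 743 without 0 h #3, 708 without 6 h and 694 without 8 h.

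The genes that fell had medians of -0.72, -0.70, -0.88 and -0.86 at 3, 4, 6 and 8 h, and those that rose had medians of 0.83, 1.08, 1.15 and 1.24. These medians describe genes picked on the same arrays. The 3 early arrays did not enter the late minus 0 h difference, but they entered each gene's spread and the filter on values. On them, set against the same 0 h mean, the genes that fell stood at -0.11, -0.22 and -0.32 at 0.5, 1 and 2 h. The genes that rose stood at 0.14, 0.38 and 0.54. All genes together stayed between -0.07 and 0.01 on the 7 arrays after 0 h, which centring each array on its median largely fixes.

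**Figure D1:**
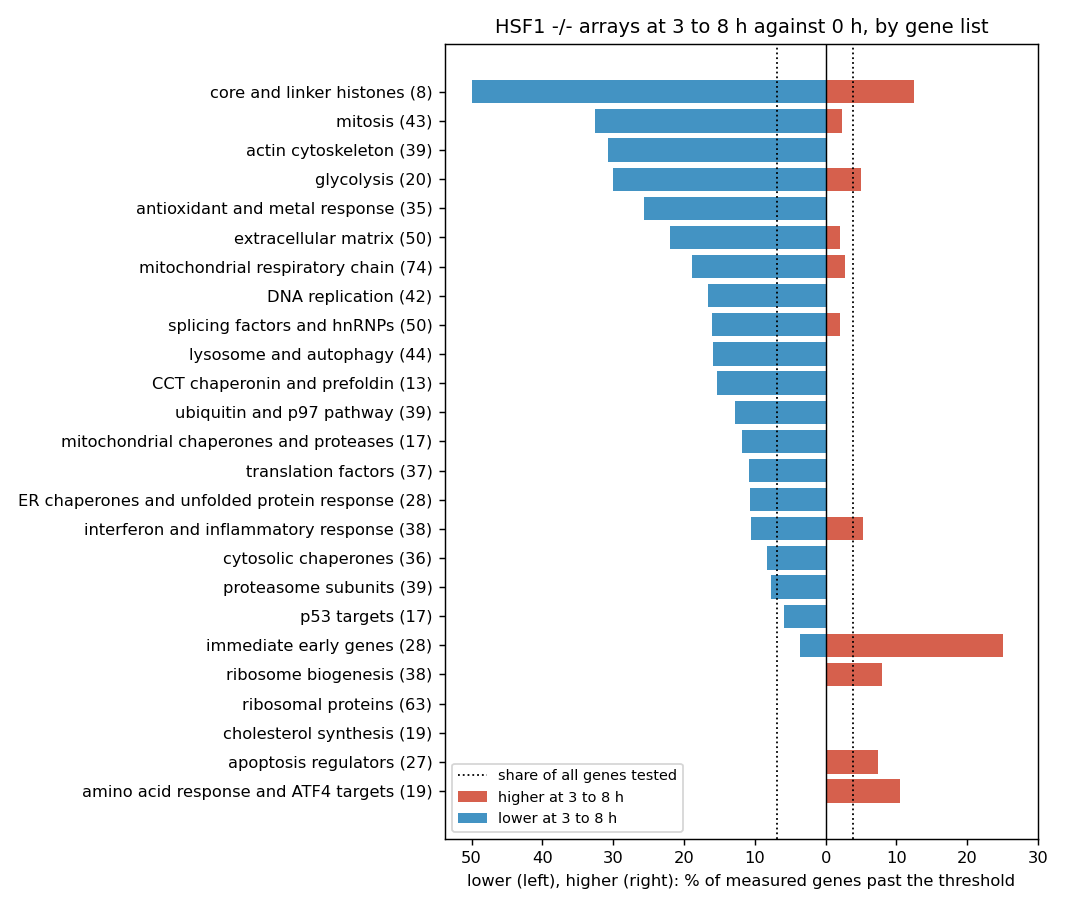
Share of each gene list's measured members (number in brackets) that passed an adjusted p of 0.05 in the late minus 0 h comparison of HSF1 -/- cells, lower to the left and higher to the right of 0, in percent. Dotted lines mark the shares over all genes tested, 6.8% lower and 3.86% higher; mitosis (14 of 43) and the actin cytoskeleton (12 of 39) lie far to the left of the line, and the immediate early genes (7 of 28) far to the right.

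No cytosolic chaperone passed the threshold as higher in late KO cells. Of the 36 measured genes for cytosolic chaperones and their partners, 0 rose and 3 fell, against 14 that rose and 0 that fell in late WT cells. Over all genes tested, 3.86% rose and 6.8% fell in KO, and 3.6% rose and 3.67% fell in WT. At an unadjusted p under 0.05 in limma, still 0 of the 36 were higher in late KO cells and 4 were lower, and 3 were lower in late WT cells. Of all 10625 genes, 2679 in KO and 2605 in WT met that p, both directions together. The list median was -0.09 in KO and 0.37 in WT, beside -0.02 over all genes in both. Hspa1a encodes the main stress-inducible HSP70, which holds and refolds unfolded proteins. It had 0.16, -0.24, -0.15 and 0.21 on the KO arrays at 3, 4, 6 and 8 h, against -0.16, -0.06 and 0.23 at 0 h. The late and 0 h values overlap, and the fitted difference was -0.01 ± 0.75 (SE, 95% interval -1.59 to 1.58, adjusted p = 0.999). In WT cells the same probe read 6.29, 5.03, 6.40 and 5.61 at those times, a late rise of 5.83 ± 0.75. That interval for KO is wide since 1 spread per gene was estimated over all 20 arrays, among them WT early arrays of 0.58, 4.55 and 5.80.

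Other inducible chaperones had small differences from 0 h in KO cells. Dnajb1 is the J-domain partner that feeds clients to HSP70. It had -0.12, -0.01, 0.25 and -0.11 on the late arrays, against -0.05, -0.19 and 0.24 at 0 h. These values overlap throughout (difference 0.00, 95% interval -0.51 to 0.52). They average 3 probes that disagreed, with late minus 0 h differences from -0.55 to 0.69. Hsph1, an HSP110 nucleotide exchange factor for HSP70, differed by -0.18 (95% interval -0.96 to 0.59) in KO and by 2.32 in WT cells. Hsp90aa1, the inducible cytosolic HSP90, differed by 0.13 (95% interval -0.27 to 0.53) in KO and by 1.36 in WT cells. Neither interval reaches the WT difference of its gene, which has an error of its own. In the direct test between the genotypes, given below, neither Hsph1 nor Hsp90aa1 passed. The mitochondrial chaperonin pair Hspd1 and Hspe1 differed by -0.01 and 0.21 in KO, against 0.84 and 1.09 in WT cells. Hspb1, the small heat shock protein HSP27, had the highest difference of the list in KO cells, 0.60, with adjusted p = 0.375.

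Among the chaperones, the 3 that fell were the HSP90 co-chaperone Fkbp4 (-0.59 ± 0.16) and the small heat shock proteins Cryab (-0.63 ± 0.17) and Hspb8 (-0.67 ± 0.20), which keep unfolded proteins soluble. Cryab had -0.35, -0.62, -0.86 and -0.68 on the late KO arrays, against 0.19, -0.12 and -0.07 at 0 h. Every late value lies below every 0 h value. In late WT cells Cryab had 1.08, 0.61, 1.13 and 1.21, and Hspb8 rose as well, by 1.09 ± 0.20. All 3 falls in KO cells are small and missed the threshold without 0 h #1, 0 h #3, 6 h or 8 h, and without centring. Fewer than these 3 also passed without 0 h #2 or 4 h, 2 each.

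**Figure D2:**
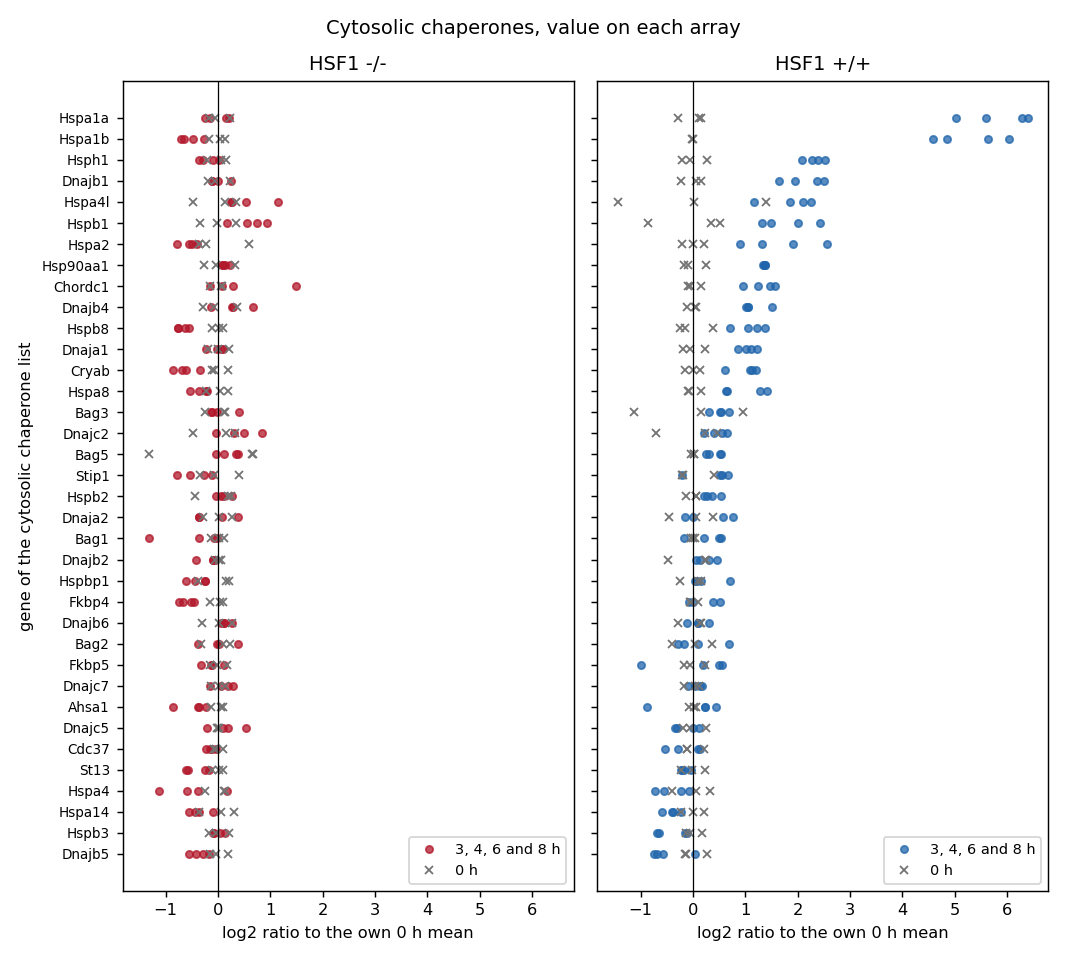
Values of the 36 measured cytosolic chaperones on each array, as log2 ratio to the 0 h mean of the same genotype, HSF1 -/- at the left and HSF1 +/+ at the right; dots are the 4 late arrays, crosses the 3 arrays at 0 h. Genes are ordered by their WT late difference. Hspa1a and Hspa1b lie at 4.58 to 6.40 on late WT arrays and between -0.70 and 0.21 on late KO arrays.

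The difference between the 2 genotypes' late responses was itself tested. It passed for 10 genes (0.0941%), 8 of them lower in KO than in WT (0.0753%) and 2 higher (0.0188%). An unadjusted p under 0.05 for this difference was met by 926 of the 10625 genes. Chaperones from the list made up 5 of the 10: Hspa1a (-5.84 ± 1.06), Hspa1b (-5.80 ± 0.99), Dnajb1 (-2.11 ± 0.35), Hspb8 (-1.77 ± 0.29) and Cryab (-1.64 ± 0.24), with adjusted p of 0.036 to 0.0438. Hsph1 missed the threshold (-2.50 ± 0.52, adjusted p = 0.0933), as did Hspa8 (-1.33 ± 0.28) and Hspa2 (-2.24 ± 0.47) at the same adjusted p. All of these calls sit close to the threshold. Blocking arrays of the same hour and number gave 0 calls with the same differences for Cryab, Hspb8 and Dnajb1, leaving out any 1 of the 14 arrays gave 0 to 6, the uncentred values 0, and 1 probe per gene 1. Hspa1a and Hspa1b are near-identical and can bind each other's probes, so they count as 1 signal.

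Heat shock elements are inverted repeats of the unit GAA. The promoter windows of RefSeq (build GRCm38.p6, 250 bases before to 50 after each start) were searched for 2 adjoining units, GAANNTTC or TTCNNGAA, on both strands at once since each motif is its own reverse complement. The promoters of 3 chaperones whose late responses differed between the genotypes are shown, because they hold a match that can be read beside those values, with the matching letters in capitals. The Hspa1a window is chr17:34972107-34972406 and the Hspa1b window chr17:34959189-34959488, both on the minus strand. Hspb8 has chr5:116422815-116423114, also on the minus strand.
Hspa1a: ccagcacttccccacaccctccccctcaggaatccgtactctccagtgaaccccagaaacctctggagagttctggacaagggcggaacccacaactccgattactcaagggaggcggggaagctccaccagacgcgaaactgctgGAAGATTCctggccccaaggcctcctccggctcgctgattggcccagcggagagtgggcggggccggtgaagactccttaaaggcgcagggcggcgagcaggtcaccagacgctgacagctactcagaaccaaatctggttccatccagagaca
Hspa1b: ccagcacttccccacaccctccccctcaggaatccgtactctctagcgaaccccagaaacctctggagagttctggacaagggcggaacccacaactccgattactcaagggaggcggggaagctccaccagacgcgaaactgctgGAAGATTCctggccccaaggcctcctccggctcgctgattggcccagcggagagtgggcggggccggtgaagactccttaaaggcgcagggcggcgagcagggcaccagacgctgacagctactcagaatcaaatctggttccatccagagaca
Hspb8: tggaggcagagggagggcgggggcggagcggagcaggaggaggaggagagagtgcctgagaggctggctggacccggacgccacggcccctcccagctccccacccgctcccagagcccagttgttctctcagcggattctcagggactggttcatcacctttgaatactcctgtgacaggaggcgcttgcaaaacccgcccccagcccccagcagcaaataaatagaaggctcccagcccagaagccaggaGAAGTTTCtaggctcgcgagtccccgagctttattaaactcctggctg
The Hspa1a and Hspa1b windows are identical at 296 of 300 bases, and each has its match starting at position -104. The match of Hspb8 starts at position 3 downstream of the start. Of the cytosolic chaperones with a window, 13 of 29 (44.8%) held the motif, against 15.1% of all 32851 windows and 14.1% of windows of the genes tested. Genes that rose in late KO cells held it in 62 of 333 windows (18.6%), and genes that fell in 84 of 594 (14.1%). Of the 10 genes whose late responses differed between the genotypes 9 had a window, and 3 of these held the motif, Hspa1a and Hspa1b being near-identical; Dnajb1, Rrm1 and the other four did not, and Cryab had no window here. None of the 9 held 3 adjoining units (GAANNTTC followed by NNGAA, or TTCNNGAA followed by NNTTC, either strand), against 3 of 29 cytosolic chaperones and 0.603% of all windows. A match of these letters describes the window, and does not show a site in use.

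Immediate early genes, which growth and stress kinases switch on within minutes and which mostly encode transcription factors, included more rises than falls. Of 28 measured, 7 rose and 1 fell, with a median of 0.43, beside 3.86% that rose and 6.8% that fell over all genes tested. Egr1, a zinc finger factor downstream of the ERK kinases, had 2.70, 2.18, 3.04 and 3.23 on the KO arrays at 3, 4, 6 and 8 h, against 0.25, 0.13 and -0.38 at 0 h. Every late array lies well above every 0 h array, and the difference was 2.79 ± 0.44 (6.91-fold, adjusted p = 0.000909). The early arrays, at 0.91, 2.34 and 3.16, were also above every 0 h array.

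The other immediate early genes that rose were Fos (1.34 ± 0.34) and Fosl1 (0.98 ± 0.23), Jun (1.29 ± 0.33), which pairs with Fos proteins in AP-1, Atf3 (1.20 ± 0.30), a stress-induced repressor, Myc (1.12 ± 0.34), the growth regulator, and Klf6 (0.93 ± 0.28). Jun had 1.61, 1.09, 1.31 and 1.13 on the late arrays, against 0.77, 0.09 and -0.86 at 0 h. The 0 h arrays are far apart, yet none reaches a late value. Fos had 1.48, 1.15, 1.33 and 1.40 late, against -0.30, 0.52 and -0.21 at 0 h. Srf, the factor that drives many of these genes, fell by 0.84 ± 0.21. The list median on the single arrays was 0.12, 0.41 and 0.81 at 0.5, 1 and 2 h and between 0.38 and 0.54 from 3 to 8 h. Late WT cells had 4 higher and 2 lower of these genes and a median of 0.29, beside 3.6% higher and 3.67% lower over all genes in WT. The difference between genotypes passed for 0 of 28 (2 at an unadjusted p under 0.05). The count of 7 was 3 without 0 h #1, 2 without 0 h #3, and 5 without 0 h #2 or any 1 of the late arrays. Atf3 and Srf missed the threshold without 0 h #1, and Fosl1 without 0 h #3.

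Other genes with no probe on the course described below rose as well. Hbegf, Noct and Csrnp1 are on no list, and their values were known when they were picked. Hbegf, a membrane-bound ligand of the EGF receptor, had 2.50, 2.62, 2.39 and 2.00 on the late KO arrays, against -0.21, 0.40 and -0.20 at 0 h (difference 2.38 ± 0.34, adjusted p = 0.000602). Noct, or nocturnin, whose transcript cycles with the circadian clock, rose by 2.21 ± 0.42 and Csrnp1, which encodes a nuclear protein, by 1.92 ± 0.37. The interferon and inflammatory list had 2 of 38 higher, Ccl2 and Irf9, and 4 lower, with a median of 0.13. Over all genes tested, 3.86% were higher and 6.8% lower. Ccl2, the chemokine that attracts monocytes, had 1.86, 2.14, 1.59 and 1.42 late, against 0.21, -0.05 and -0.16 at 0 h. It rose by 1.75 ± 0.36 in KO cells, while the WT late difference was 0.05; the difference between genotypes had an adjusted p of 0.372. Egr1 and Ccl2 were the only rises among the named genes without such a probe that passed in every alternative run.

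**Figure D3:**
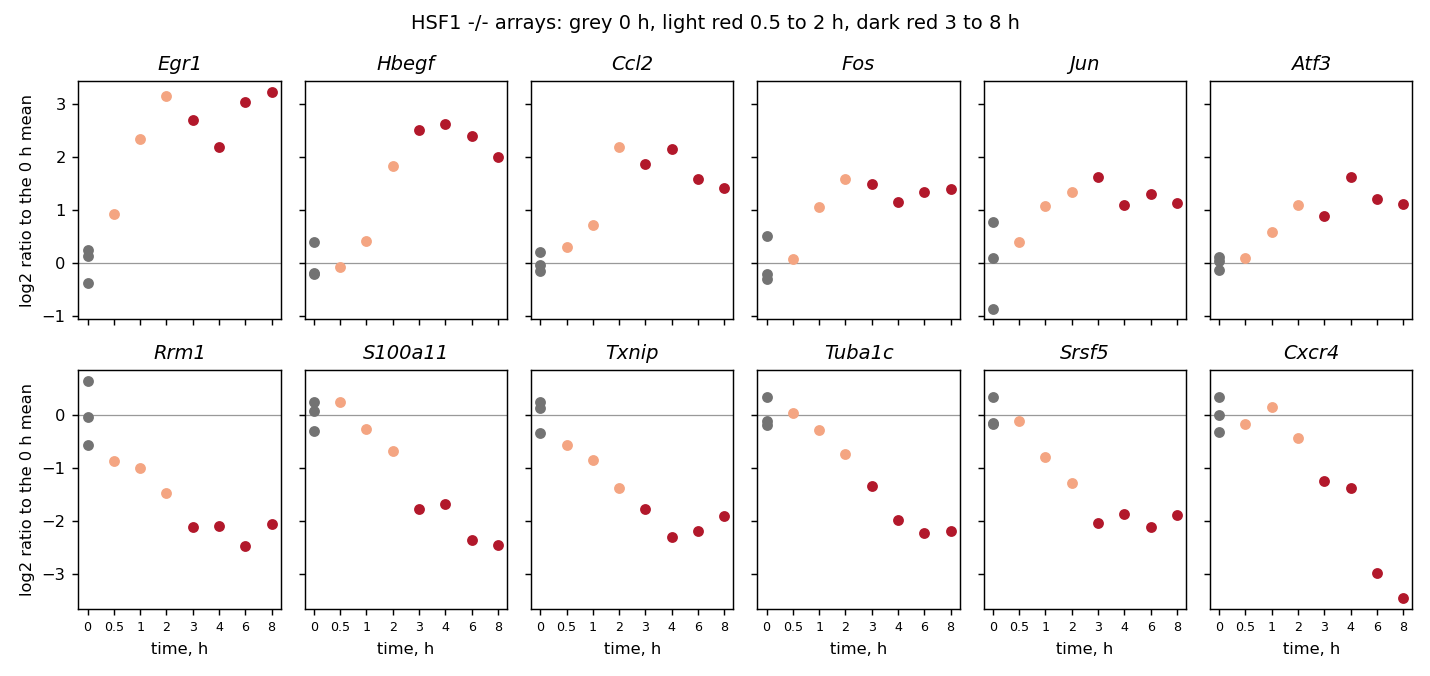
Values of 6 genes that rose and 6 that fell on the 10 HSF1 -/- arrays, as log2 ratio to the 0 h mean, by time in h; each point is 1 array. Egr1 stood at 3.16 by 2 h and Cxcr4 at -2.99 and -3.45 at 6 and 8 h. In all 12 genes the 4 late points lie on 1 side of the 3 points at 0 h. The genes were picked with their values known, so that separation follows largely from the choice. Of 10386 genes with a value on every array compared, 10.3% had all late values above all 0 h values, and 16.4% had them below.

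Among the falls, Rrm1 had the smallest p of all genes tested. It encodes the large subunit of ribonucleotide reductase, which makes the building blocks of DNA. Rrm1 had -2.12, -2.10, -2.48 and -2.06 on the late KO arrays, against -0.05, 0.63 and -0.58 at 0 h. Every late array lies below the lowest 0 h array, and the difference was -2.19 ± 0.23 (4.56-fold lower, adjusted p = 0.000274). Its 2 probes differed in size, -3.13 and -1.25. In late WT cells the difference was -0.44 ± 0.23, and the gap between genotypes, -1.75 ± 0.32, had an adjusted p of 0.0498, just inside the threshold.

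DNA replication genes fell with it in part: 7 of 42 fell, 0 rose (3 at an unadjusted p under 0.05), and the median was -0.36. Over all genes tested 6.8% fell and 3.86% rose. Thymidine kinase Tk1 fell by 1.65 ± 0.28, the single-strand binding subunit Rpa3 by 1.03 ± 0.21 and the licensing inhibitor Gmnn by 0.99 ± 0.18. Tk1 had -1.75, -1.47, -1.71 and -1.68 late, against -0.09, 0.10 and -0.01 at 0 h, with no overlap. Promoters of this list often held an E2F motif (TTTGGCGC or TTTCCCGC or their reverse complements), 10 of 36 against 3.22% of tested genes, but neither Rrm1 nor Tk1 did in these windows, and 3.54% of all genes that fell did.

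Of 43 mitosis genes 14 fell and 1 rose, beside 6.8% that fell and 3.86% that rose over all genes tested, and the median was -0.47. The gene that rose, Espl1 (0.57), had 1.91 on its probe on the course described below and -0.09 on its others. The 14 falls were the highest number of all lists, shared with the respiratory chain. The lists differ in length, the respiratory chain having 74 genes, so this ranks counts and not shares. Cks2 and Cks1b, small subunits bound to cyclin-dependent kinases, fell by 1.21 ± 0.19 and 0.97 ± 0.16. The spindle checkpoint gene Mad2l1 fell by 1.26 ± 0.23 and securin, Pttg1, by 1.00 ± 0.16. Cks2 had -1.11, -1.15, -1.49 and -1.09 late, against 0.38, -0.20 and -0.17 at 0 h, and its early values of 0.16, 0.19 and -0.03 lie within the 0 h range. In WT cells 11 of the 43 fell (3.67% of all genes in WT), with a median of -0.41, and the genotypes' responses differed for 0 of them (3 at an unadjusted p under 0.05). The count of 14 in KO cells was 7 without 0 h #1. The replication-independent histone H3f3b fell by 1.29 ± 0.19, and of 8 measured histone genes 4 fell and 1, Hist1h2bc (0.67), rose (falls numbered 1 without 0 h #1, 2 without 0 h #3 or 8 h).

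Members of the cytoskeleton were among the falls. Tuba1b and Tuba1c, near-identical alpha-tubulins whose probes cannot be told apart, fell by 2.06 ± 0.32 and 1.94 ± 0.29, and count as 1 signal. Tuba1c had -1.34, -1.99, -2.22 and -2.19 late, against 0.33, -0.20 and -0.13 at 0 h, and was already at -0.75 on the 2 h array. Of 39 actin cytoskeleton genes 12 fell and 0 rose, none rose at an unadjusted p under 0.05 either, 38 had a negative difference, and the median was -0.56 against -0.36 in WT cells. Over all genes tested 6.8% fell and 3.86% rose, and 5515 of 10625 had a difference below 0. Actb, cytoplasmic beta-actin, fell by 0.96 ± 0.22, the myosin light chain Myl6 by 0.87 ± 0.18, tropomyosin Tpm4 by 1.05 ± 0.27 and the actin filament elongator Vasp by 0.87 ± 0.21. The list median was -0.37, -0.45, -0.70 and -0.64 from 3 to 8 h. This count rests heavily on single arrays: 2 passed without 0 h #1, 7 without #2, 6 without #3, and 3 without 6 h or 8 h. Tpm4 missed the threshold without 0 h #1, 0 h #2, 6 h or 8 h, and Vasp without 0 h #1.

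Splicing regulators were another group with clear members. Of 50 measured, 8 fell and 1 rose, with a median of -0.26. Srsf5, a serine/arginine-rich splicing factor, had -2.04, -1.86, -2.12 and -1.89 late, against 0.33, -0.18 and -0.15 at 0 h, and fell by 1.98 ± 0.35. Its early values were -0.13, -0.79 and -1.29, values that were low by 2 h. The kinase that phosphorylates such factors, Clk1, fell by 1.54 ± 0.21, although its 6 probes ranged from -4.05 to -0.22. Srsf3 fell by 0.87 ± 0.18 and Srsf2 by 0.67 ± 0.14. The list kept 3 falls without 0 h #1, 4 without 6 h and 5 without 8 h, and Srsf2 missed the threshold without 0 h #1. Translation factors held 4 falls of 37, led by the RNA helicase Eif4a1 (-1.31 ± 0.21), beside 6.8% lower over all genes tested.

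**Figure D4:**
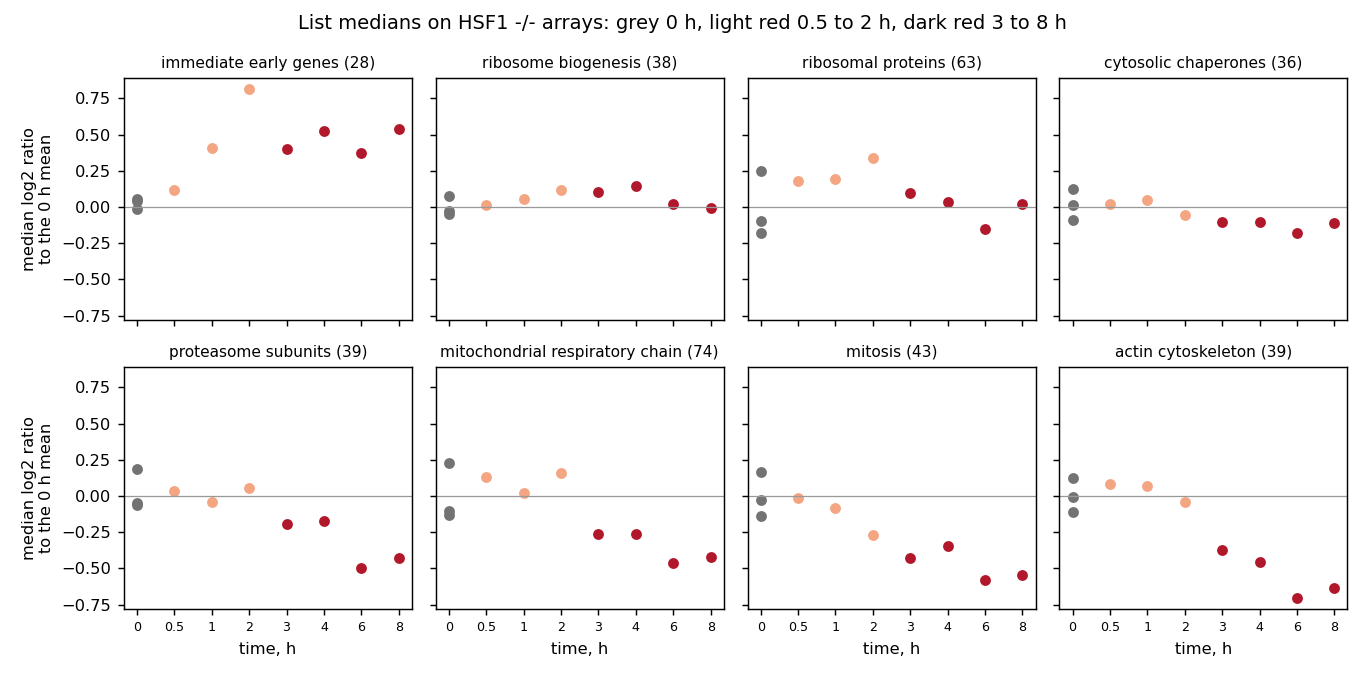
Median log2 ratio of 8 gene lists on the 10 HSF1 -/- arrays, relative to the 0 h mean, by time in h; each point is 1 array and the number of genes stands in brackets. Immediate early genes stand at 0.81 by 2 h and 0.38 to 0.54 later, cytosolic chaperones stay between -0.18 and 0.13, and mitosis and actin genes lie at -0.35 to -0.70 from 3 h on.

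In the antioxidant list a minority of genes fell. The list counts here stand beside 3.86% higher and 6.8% lower over all genes tested. The antioxidant list comes first. It had 9 of 35 lower and 0 higher (4 at an unadjusted p under 0.05), with a median of -0.36. Glutaredoxin, Glrx, had -1.81, -1.46, -2.02 and -1.91 late, against 0.50, -0.20 and -0.30 at 0 h, and fell by 1.80 ± 0.24. Peroxiredoxin Prdx1 fell by 1.16 ± 0.19 and catalase, Cat, by 0.77 ± 0.17. A larger fall was in a gene on no list. Txnip, the thioredoxin-binding protein that restrains glucose uptake, fell by 2.04 ± 0.24, with its 3 probes between -2.06 and -2.02. Txnip had -1.77, -2.30, -2.19 and -1.91 late, against 0.23, -0.35 and 0.11 at 0 h. Its WT late difference was -0.26, and the gap between genotypes had an adjusted p of 0.0664. Glycolysis had 6 of 20 lower and 1 higher, Aldoc, which had a probe on the course described below, with lactate dehydrogenase Ldha at -1.15 ± 0.22 and phosphofructokinase Pfkm at -1.21 ± 0.28. The respiratory chain had 14 of 74 lower and 2 higher, with Sdhc of complex II at -1.02 ± 0.17 and Ndufa9 of complex I at -0.87 ± 0.14. Among those higher, Atp5e (0.63) had 1.38 on its probe on that course and -0.13 on its other. Without 0 h #1, 6 h or 8 h these counts were 3, 4 and 4 for the antioxidant list, 1, 2 and 2 for glycolysis, and 3, 7 and 8 for the respiratory chain, and glycolysis had 3 without 0 h #3. Pfkm missed the threshold without 0 h #1.

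Protein folding and turnover systems outside the cytosolic chaperones also held falls, beside 6.8% lower over all genes tested. The ER chaperone Hspa5 (BiP), the main target of the unfolded protein response, had -0.65, -0.44, -1.26 and -1.23 late, against 0.24, -0.04 and -0.20 at 0 h. It fell by 0.90 ± 0.19 with Pdia6 (-0.86 ± 0.20) and Atf6 (-0.78 ± 0.24), 3 of 28 ER genes in all. In the cytosolic chaperonin list 2 of 13 fell, Cct3 (-1.02 ± 0.17) and Cct8 (-0.61 ± 0.18). The smaller of these falls depend on single arrays: Pdia6 missed the threshold without 0 h #1, Cct8 without any 1 of the 0 h arrays, 6 h or 8 h, and Atf6 without any 1 array except 6 h. Proteasome subunits had 3 of 39 lower, close to the 6.8% of all genes called lower, although 36 of 39 differences were below 0 (5515 of 10625 over all genes), with a median of -0.36 beside -0.40 in WT. Among ubiquitin genes 5 of 39 fell, led by the SCF ligase adaptor Skp1 (-1.16 ± 0.21). Lysosomal genes had 7 of 44 lower, with the acid lipase Lipa at -1.21 ± 0.17 and the proton pump accessory subunit Atp6ap1 at -0.73 ± 0.17 (2 without 0 h #1, and 4 without 0 h #3, 6 h or 8 h). Lipa differed between genotypes (-1.38 ± 0.25, adjusted p = 0.0438): on late WT arrays it had -0.06, 0.20, 0.24 and 0.30.

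Of 50 extracellular matrix genes 11 fell and 1 rose, Loxl2 (3.51), whose single probe is on the course described below. Over all genes tested 6.8% fell and 3.86% rose. Among the matrix genes that fell were the network collagen Col8a1 (-1.14 ± 0.19) and the collagen hydroxylase P4ha2 (-0.63 ± 0.14), and their count was 4 without 0 h #1 and 5 without 6 h or 8 h. The chemokine Cxcl12, made by stromal cells and 1 of the 4 falls of the inflammatory list, had -1.48, -1.33, -2.04 and -1.75 late, against 0.35, -0.41 and 0.06 at 0 h, and fell by 1.65 ± 0.20. Its receptor gene Cxcr4 had the largest fall of the named genes, -2.27 ± 0.43, from a single probe. Cxcr4 had -1.25 and -1.39 at 3 and 4 h and -2.99 and -3.45 at 6 and 8 h, against 0.33, 0.00 and -0.33 at 0 h. It was the 1 gene that passed (0.00941% of 10623) between 6 and 8 h and 3 and 4 h, with -1.90 ± 0.26 (adjusted p = 0.0198), where 502 genes had an unadjusted p under 0.05. That count of 1 was 7 to 24 with a late array left out. S100a11, a calcium-binding protein of the cytoskeleton and membrane, fell by 2.07 ± 0.25, with -1.78, -1.69, -2.35 and -2.46 late.

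Several lists did not move as wholes, and their counts stand beside 3.86% higher and 6.8% lower over all genes tested. Their unadjusted counts stand beside 2679 of 10625 genes, both directions together. Of 63 ribosomal protein genes 0 passed (1 at an unadjusted p under 0.05), and the median was 0.00, with Rpl27a of smallest p (0.61, adjusted p = 0.113). Cholesterol synthesis had 0 of 19 (1 higher and 4 lower at an unadjusted p under 0.05; Msmo1 0.88, adjusted p = 0.0863), and the p53 targets 1 of 17, the cyclin Ccng1 (-1.05 ± 0.14). Amino acid response genes had 2 of 19 higher, Cebpg (1.12 ± 0.32) and Slc3a2 (0.54 ± 0.16), and 0 lower. Of 38 ribosome biogenesis genes 3 rose, Polr1b, Nop16 and Rrs1, and of 27 apoptosis regulators 2 rose, Pdcd4 and the BCL2 family survival factor Mcl1 (0.70 ± 0.19). Each of Cebpg, Slc3a2, Mcl1, Nop16 and Rrs1 missed the threshold in at least 5 of the 7 fits that left out 1 array, 0 h #1 and 8 h among them. Polr1b and Pdcd4 belong to the group described next.

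The largest rises of the late KO arrays shared 1 course over time. The 10 largest among genes with a value on all 7 arrays and no overlap were Kif28 (3.85), Efhb (3.56), Loxl2 (3.51), Noxred1 (3.47), Zfp12 (3.33), Rabggta (3.12), 4732419C18Rik (3.11), Exo5 (3.07), 1700007J10Rik (2.97) and 2500004C02Rik (2.88), genes of unlike known function, and 9 of the 10 rest on 1 probe. Their mean was 0.08, 1.29 and 1.83 at 0.5, 1 and 2 h, and then 2.48, 2.99, 3.64 and 4.04 at 3, 4, 6 and 8 h. In WT cells the same probes had means of -0.31, 1.08 and 1.48 and then 2.85, 1.97, 2.73 and 3.22. Each pair of the 10 correlated over the 20 arrays at 0.94 or more, a description of genes picked for their rise on some of these arrays.

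Probes that follow this course were then counted, a step chosen after the data were seen. A correlation of at least 0.9 with the mean of the 10 was met by 260 of 20652 probes listing 1 gene (1.26%), by 21 of 1063 listing several (1.98%), and by 810 of 18245 listing none (4.44%). Of the 410 genes that rose, 162 (39.5%) had such a probe, of the 228 that rose over 2-fold 124, and of the 41 over 4-fold 32. Of the 723 that fell, 1 did, as the choice of probes by a rising course largely fixes. In 165 genes with both kinds of probe, the probes on the course had a median late difference of 1.77 and the gene's other probes one of -0.04. The other probes were lower in 163 of the 165 genes, and 6 genes had them above 1. Since the probes on the course were picked for rising on these arrays and the others were not, the direction of that gap follows largely from the choice, and it is given as a description. Jag1, a Notch ligand, had 5.34 on its probe on the course and 0.23 on the other. Vcp, the p97 unfoldase, had 3.19 on 1 probe and a mean of -1.11 on its 8 others. Probe sequences were not used here, so whether these probes share a sequence was not tested.

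**Figure D5:**
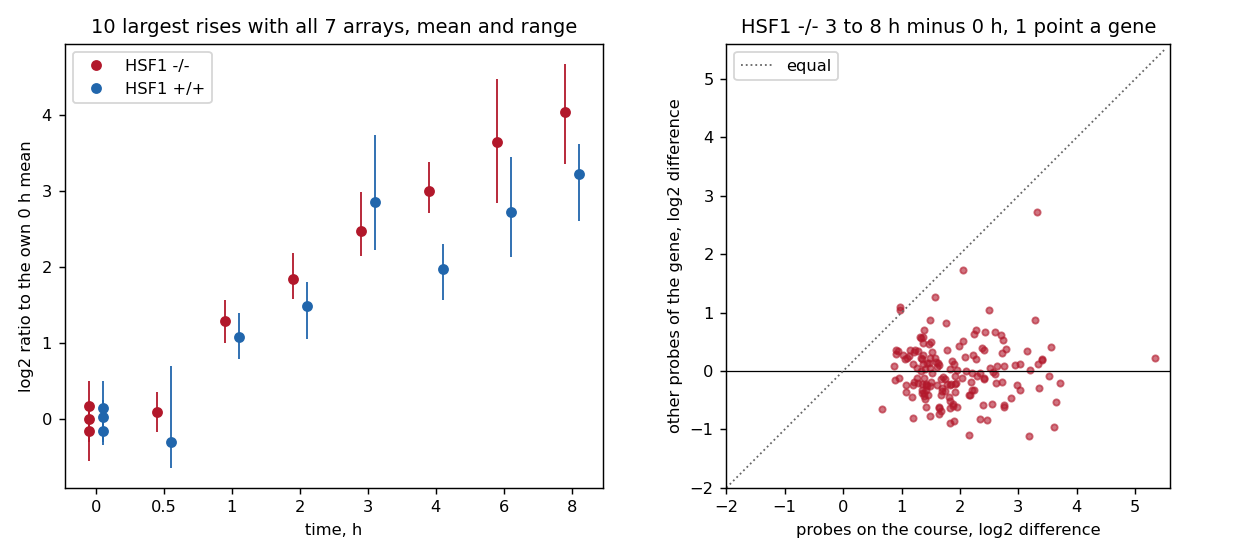
Left, mean (dot) and range (line) of the 10 largest late rises, among genes with a value on all 7 KO arrays and no overlap between late and 0 h, on each array, as log2 ratio to the own 0 h mean, by time in h, HSF1 -/- in red and HSF1 +/+ in blue. Right, late minus 0 h log2 difference in HSF1 -/- cells for 165 genes, probes on the course on the x axis (median 1.77) and the same genes' other probes on the y axis (median -0.04), with equality dotted.

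Leaving out these probes, which were chosen for a rise, removed mainly rises. With them left out 921 genes passed, 229 higher and 692 lower. Over the functional lists, list memberships that rose numbered 14 in place of 23, and those that fell 116 in place of 120. The rises that went included Loxl2 in the matrix list, Irf9 (1.23 ± 0.27) in the interferon list, Pdcd4 (1.20 ± 0.22), Polr1b (1.64 ± 0.25) and Aldoc (0.78 ± 0.16), in which 1 probe of 2 was on the course. All 7 immediate early rises stayed without these probes.

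Late and early KO arrays differed directly for 528 genes (4.97%), 220 higher (2.07%) and 308 lower (2.9%) late. Slamf1, a receptor of the lymphocyte activation family, was lower by 1.41 ± 0.19 late than early, the growth arrest gene Gas1 by 1.17 ± 0.17, Cks2 by 1.32 ± 0.19 and S100a11 by 1.83 ± 0.25. Against 0 h, the late difference of Gas1 ran from -1.21 to -0.18 over the settings. It missed the threshold only with 1 probe per gene (limma adjusted p = 0.648). Eid3 was higher late by 1.68 ± 0.25, with 0.75, 1.45, 1.46 and 1.40 at 3, 4, 6 and 8 h, against -0.75, -0.33 and -0.14 at 0.5, 1 and 2 h. Egr1, in contrast, did not pass here (0.65 ± 0.44, adjusted p = 0.417). The split turned with the scaling: it was 301 higher and 112 lower without median centring, and 341 higher and 228 lower with array widths scaled. The count depended on single arrays, early and late: it was 49 without 0.5 h, 111 without 1 h, 75 without 6 h and 59 without 8 h, but 425 without 2 h, and it was 326 without the probes on the shared course.

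Late WT cells had 772 genes past the threshold (7.27%), 382 higher (3.6%) and 390 lower (3.67%). The WT difference was taken between other arrays than the KO difference, but both rest on the same Cy3 pool. Each gene's spread was estimated over the arrays of both genotypes together, so a gene of low spread passes more easily in both comparisons. The overlaps that follow are therefore not between independent tests. Of genes lower in late KO cells 177 were also lower in late WT cells, 24.5% of the KO and 45.4% of the WT falls. Of genes higher in KO 197 were also higher in WT, 48% of the KO and 51.6% of the WT rises. Among genes with no probe on the shared course 66 rose in both, 26.6% of 248 in KO and 27.8% of 237 in WT. Opposite calls were 3, all lower in KO and higher in WT: Cryab, Hspb8 and Lars, a leucyl-tRNA synthetase.

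Markers of other cell types were set beside these results, with 3.86% higher and 6.8% lower over all genes tested. Of 18 macrophage markers 1 rose (Lyz2 0.66), of 16 epithelial markers 2 rose (Ocln 1.38, Esrp1 0.85), and of 11 adipocyte markers 1 rose (Retn 1.75, 1 of its 2 probes on the shared course) and 1 fell. Of 11 muscle markers 1 fell, Acta1 (-1.11), and of 9 endothelial and 13 neural markers 0 passed (0 and 1 at an unadjusted p under 0.05). Of 16 fibroblast markers 2 fell, Prrx1 (-1.07) and Col1a2 (-0.59), and 0 rose. At an unadjusted p under 0.05, 7 of the 16 were lower, 15 had a difference below 0, and the list median was -0.32 (-0.38 in late WT cells). Of all 10625 genes, 2679 met that p, both directions together, and 5515 had a difference below 0. Of the 11 adipocyte markers 9 had a difference above 0, with a median of 0.39, and 3 were higher at an unadjusted p under 0.05. The part of cell composition in the results was not tested.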

How the data were processed

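The authors deposited 1 log ratio per probe and array, Cy5 sample over Cy3 pool per the labels, treated here as log2. No source names the base: values reach 10.2, beyond the 4.82 that a log10 ratio of 16-bit signals can reach, while natural logs stay possible and would make the folds given here too small. Background correction, spot filters and normalization within arrays were not given in the sources used here. In all, the table had 42624 probes, 3.28% of values missing; the platform table gave 1 gene for 21701 probes, several for 1124 and none for 19799, and only the first kind was tested. Arrays were centred on their median, probes needed 2 values in each of 6 groups, and a gene's value is the mean of its probes, each relative to its own mean. limma 3.58.1 in R 4.3.3 (lmFit, eBayes) fitted the 6 group means over 20 arrays, with two-sided tests, SE from that fit and Benjamini-Hochberg adjustment over all genes at 0.05. Late and early arrays pair between KO and WT by their hour only. The named genes include the 10 largest rises and 10 largest falls without overlap and with a value on all 7 arrays. At most 4 genes past the threshold were named per functional list by p, or the gene of smallest p where none passed. All cytosolic chaperones with Hspd1 and Hspe1 were named, and up to 6 genes of smallest p in each further comparison. Hsf1, Hsf2 and Hsf4 were to be named if measured. The 26 functional and 7 cell type lists hold 943 tested genes. Members, lists and naming were chosen with earlier results of these data known. The fit was tested on simulated data.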

Additional observations from a re-analysis of the deposited data

Results flagged for a closer look

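For 6 named genes, 1 of the 4 late KO arrays stood apart from the other 3; chance alone marks about 1 in 20 such groups, and 137 genes were examined. Rrm1 had -2.48 at 6 h, against -2.12 to -2.06 at the other late times. Cks2 had -1.49 at 6 h, against -1.15 to -1.09. Clk1 had -2.01 at 3 h, against -1.39 to -1.38. Ccng1 had -0.87 at 4 h, the smallest of its falls, against -1.12 to -1.09. Eid3 had 0.75 at 3 h, against 1.40 to 1.46. The co-chaperone Dnajb2 had -0.41 at 3 h, against -0.09 to -0.05, and did not pass in the late comparison. Each is a single array of its hour, so change over time and the error of 1 array cannot be told apart.

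For 10 genes the late responses of the genotypes differed in the direct test, KO minus WT. Lower in KO were Hspa1a (-5.84), Hspa1b (-5.80), Dnajb1 (-2.11), Hspb8 (-1.77), Rrm1 (-1.75), Cryab (-1.64), Islr (-1.56) and Lipa (-1.38). Higher in KO were Zdhhc16 (1.82) and Fbxo5 (1.24). Islr, a secreted immunoglobulin-domain protein of stromal cells, had -1.60, -1.62, -1.51 and -1.21 on late KO arrays, against 0.10, -0.21, 0.24 and 0.16 on late WT arrays. Fbxo5, an inhibitor of the anaphase-promoting complex, had 0.53, 0.29, 0.33 and 0.11 on late KO arrays, against -0.85, -1.04, -0.95 and -0.84 on late WT arrays. Zdhhc16, a palmitoyltransferase, had 0.30, -0.03, 0.06 and 1.02 on late KO arrays, against -1.33, -1.69, -1.69 and -1.21 on late WT arrays. For these last 2 the KO late difference itself did not pass (adjusted p = 0.223 for Fbxo5 and 0.379 for Zdhhc16).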

How the results depend on the processing

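The count of 1133 genes between late and 0 h KO arrays ranged from 523 to 1100 with 1 array left out, and was 220 without both 6 and 8 h. It was 882 without centring (47.5% higher in place of 36.2%), 1539 after quantile normalization, 1426 with array widths scaled (625 higher, 801 lower), 1213 with trend and robust options, 872 with only the 7 arrays fitted and 921 without the probes on the shared course, a setting chosen after seeing the data; the cause of these differences was not tested, apart from the fewer arrays or probes entered. Of the 98 named genes past the threshold, 35 passed in every setting run, 22 lower and 13 higher, and 11 of the 13 had a probe on the shared course. The difference between genotypes (10 genes) gave 0 without centring, 1 with 1 probe per gene and 0 to 6 with 1 array left out. With the replicate block, which pairs KO and WT arrays of the same hour and the same number at 0 h, it gave 0, with Cryab at -1.64 (adjusted p = 0.154). Late against early KO arrays (528 genes) gave 49 to 554 with 1 array left out and 326 without the probes on the shared course. The comparison of 6 and 8 h with 3 and 4 h (1 gene) gave 7 after quantile normalization, 16 with widths scaled, 2 with 1 probe per gene, 4 with a value on every array, 3 with trend and robust options and 7 to 24 with 1 late array left out. No value past the threshold changed direction, but 19 of the 137 named genes, none of which passed in any setting, had both signs over the settings: Hspa1a ran from -0.65 to 0.11 and Dnajb1 from -0.55 to 0.20. Of the single-gene and list values under other settings 341 lost the threshold, 5 gained it, 435 moved and 3692 stayed. Signal over background was not examined, since spot intensities were not used here.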
